A study of Homo sapiens with 4 samples.

Results

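The 6 genes of the C/EBP family analysed here were CEBPA, CEBPB, CEBPD, CEBPE, CEBPG and DDIT3, of 19970 coding genes in GENCODE release 44. They were taken by name, and each was studied over its gene body plus 100 kb on either side. These windows held 63 of the 149858 regions of open chromatin found in the series. Accessible DNA was mapped with ATAC-seq, an assay in which a transposase inserts sequencing adapters into open chromatin. The cells were MCF10A, a non-transformed human mammary epithelial line, transduced with a tet-inducible TAZ-4SA, a constitutively active form of the Hippo pathway effector TAZ. Cells of the No Dox group carried the construct and received no doxycycline (Dox), and cells of the Dox group were treated for 72 h with Dox at 0.05 µg/mL, with 2 biological replicates in each group and 50000 cells in each reaction. As both groups carried the construct and only 1 received Dox, the effects of TAZ-4SA and of Dox itself cannot be told apart here.

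C/EBP proteins are transcription factors of the basic leucine zipper class, which bind DNA as dimers through a basic region next to the zipper. C/EBPα restrains proliferation and drives differentiation of fat, liver and myeloid cells, C/EBPβ is needed for the growth and secretory differentiation of the mammary epithelium, and C/EBPδ takes part in the acute phase response and in involution of the mammary gland. C/EBPε acts in late granulocyte differentiation, C/EBPγ is a widely expressed dimer partner of other bZIP proteins including ATF4, and DDIT3 encodes CHOP, a stress-induced member that dimerises with other C/EBP proteins and changes where they bind.

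The authors pooled the replicates of each condition and deposited 1 peak list per condition, so the spread between replicates is not known and no p-values are given. The 95% intervals printed beside shares are exact Clopper-Pearson intervals and reflect counting error alone. There were 84353 peaks with Dox and 117740 peaks without it, and the read depth of each sample is unknown here. Peaks that overlapped or touched were joined into regions, called Dox-only, No-Dox-only or shared. Over the whole genome, 33440 regions were Dox-only, 67861 No-Dox-only and 48557 shared, and Dox-only regions were thus 33.0% of those found in 1 condition. The height of a peak is given as its fold enrichment over background at the summit, with its percentile within its own list, and a region was called strong if a peak in it reached the median fold of its list (4.07 in Dox, 3.81 in No Dox). As a check of the cell type, promoters of 10 of 12 mammary epithelial markers had a peak in both conditions, against 65.3% of all coding genes. KRT14, a basal keratin, had no peak and TP63, the basal lineage factor, had a peak with Dox alone. Of the markers of the other cell types in which C/EBP proteins are best known, promoters open in both conditions were 0 of 10 for myeloid cells, 1 of 6 for adipocytes (PPARG, the adipogenic receptor) and 1 of 6 for hepatocytes (SERPINA1, a secreted protease inhibitor). However, 4 of the myeloid promoters had a peak with Dox alone and 2 with No Dox alone, as did 1 hepatocyte promoter with No Dox alone.

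Sequences around the strong No-Dox-only regions of the family, and around the only Dox-only region that had a gene of the family as its nearest coding gene, are shown first, because the fixed motifs of TAZ partners and of C/EBP proteins were sought in them. The last of these was a low peak, and the 2 strong Dox-only regions, which lay nearest to other genes, are described by position only. The first 4 lines are 201 bp windows centred on the summits of the strong No-Dox-only regions of the CEBPA and CEBPG locus, at chr19:33298655-33298855, chr19:33339469-33339669, chr19:33350548-33350748 and chr19:33376939-33377139, and the fifth is the Dox-only region closest to CEBPB, at chr20:50195456-50195656 (hg38, plus strand). Capitals mark matches to the AP-1 motif (TGACTCA or TGAGTCA) in the first 4 and to the C/EBP motif (TTGCNNAA, read on the other strand) in the fifth.
CEBPA, 3.38 kb from the TSS: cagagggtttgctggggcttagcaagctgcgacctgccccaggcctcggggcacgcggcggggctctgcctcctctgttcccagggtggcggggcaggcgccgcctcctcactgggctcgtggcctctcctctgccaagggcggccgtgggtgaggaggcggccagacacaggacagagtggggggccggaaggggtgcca
CEBPA to CEBPG, 33.8 kb from CEBPG: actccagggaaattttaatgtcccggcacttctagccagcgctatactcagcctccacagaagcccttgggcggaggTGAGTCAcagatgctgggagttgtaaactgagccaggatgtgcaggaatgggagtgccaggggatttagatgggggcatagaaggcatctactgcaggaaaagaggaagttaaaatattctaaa
CEBPA to CEBPG, 22.7 kb from CEBPG: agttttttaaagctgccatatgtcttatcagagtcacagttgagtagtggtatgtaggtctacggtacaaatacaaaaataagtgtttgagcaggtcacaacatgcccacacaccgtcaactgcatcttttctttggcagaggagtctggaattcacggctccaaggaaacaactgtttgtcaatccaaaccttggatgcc
CEBPG intron: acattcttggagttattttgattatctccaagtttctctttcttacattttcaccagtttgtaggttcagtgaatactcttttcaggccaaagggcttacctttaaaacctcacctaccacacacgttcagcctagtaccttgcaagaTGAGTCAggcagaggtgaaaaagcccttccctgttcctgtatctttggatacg
CEBPB, 4.59 kb from the TSS: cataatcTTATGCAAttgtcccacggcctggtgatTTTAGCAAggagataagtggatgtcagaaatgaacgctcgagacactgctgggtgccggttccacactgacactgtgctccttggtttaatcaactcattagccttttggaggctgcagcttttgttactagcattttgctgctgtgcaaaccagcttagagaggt

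Promoters were open at 5 of the 6 genes in both conditions, and the promoter of CEBPE was closed in both. A promoter was called open where a peak lay within 1 kb of a transcription start site (TSS). Of all 19970 coding genes, 65.3% had a peak at a promoter in both conditions and 24.9% in neither. No gene of the family changed its promoter state, a change seen at 5.85% of coding genes with a peak in Dox alone and at 3.92% with a peak in No Dox alone. As the 2 lists have different backgrounds, the No Dox to Dox ratio of folds of a shared region is given relative to its median over all shared regions (1.05), so that a relative ratio above 1 means a peak weaker with Dox than the median shared region. At the 13750 shared regions within 1 kb of a coding TSS, the median relative ratio was 1.02.

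At CEBPA (ENSG00000245848.3, chr19:33299934-33302534, minus strand), the promoter peak was the highest of the family in the Dox list. Its fold was 12.0 in Dox, above 93.5% of that list, and 12.9 in No Dox, at percentile 95.1. The Dox peak spanned 1609 bp and the No Dox peak 1456 bp, with summits 76 and 208 bp upstream of the TSS, and the relative ratio of 1.02 equalled that of the median promoter region. CEBPG (ENSG00000153879.9, chr19:33373685-33382686, plus strand) had the highest promoter peak of the family in the No Dox list, with a fold of 13.8 (percentile 95.7), against 9.95 (percentile 89.9) in Dox. The summits lay 4 bp apart, and the relative ratio of 1.31 stood at percentile 81.6 of all shared regions.

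At CEBPB (ENSG00000172216.6, chr20:50190830-50192668, plus strand), the promoter peak was the lowest of the open promoters in both lists. The fold was 5.65 in Dox (percentile 70.5) and 5.08 in No Dox (percentile 73.1), with a relative ratio of 0.853. The summits lay 370 bp apart, at 131 bp downstream of the TSS in Dox and 239 bp upstream in No Dox, where the antisense transcript CEBPB-AS1 overlaps the promoter. ATAC-seq does not tell the strand of transcription, so the peak cannot be assigned to either gene.

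At CEBPD (ENSG00000221869.5, chr8:47736913-47738164, minus strand), the promoter fold was 8.36 in Dox (percentile 85.5) and 12.5 in No Dox (percentile 94.7). The relative ratio of 1.42 was the largest at a promoter of the family and stood at percentile 86.8 of all shared regions. The No Dox peak spanned 2460 bp and covered the whole gene, whereas the Dox peak spanned 1542 bp.

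DDIT3 (ENSG00000175197.13, chr12:57516588-57521737, minus strand) has a cluster of 4 TSSs and 1 further TSS upstream of them. Over the cluster, the fold was 7.69 in Dox (percentile 83.0) and 10.4 in No Dox (percentile 92.3), and the relative ratio of 1.28 stood at percentile 79.5. A separate region lay at the upstream TSS, in an intron of the divergent neighbour MBD6, with folds of 7.46 in Dox and 6.78 in No Dox and a relative ratio of 0.862. There the Dox peak of 1514 bp covered the TSS, while the No Dox peak of 704 bp began 0.503 kb away from it. The 2 promoter regions of DDIT3 thus lay on opposite sides of the median shared region.

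At CEBPE (ENSG00000092067.7, chr14:23117036-23120256, minus strand), no peak lay at any of the 3 TSSs in either list. The nearest peak to a TSS was 17.5 kb away in Dox and 17.1 kb away in No Dox. Of the 10 myeloid markers, 4 likewise had no promoter peak in either condition, among them MPO, a granule enzyme of neutrophils, and SPI1, the myeloid factor PU.1. Another 4 had a promoter peak with Dox alone (CSF3R, LTF, AZU1 and PRTN3) and 2 with No Dox alone (CAMP and ELANE), and AZU1, PRTN3 and ELANE are neighbours with overlapping windows.

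**Figure D1:**
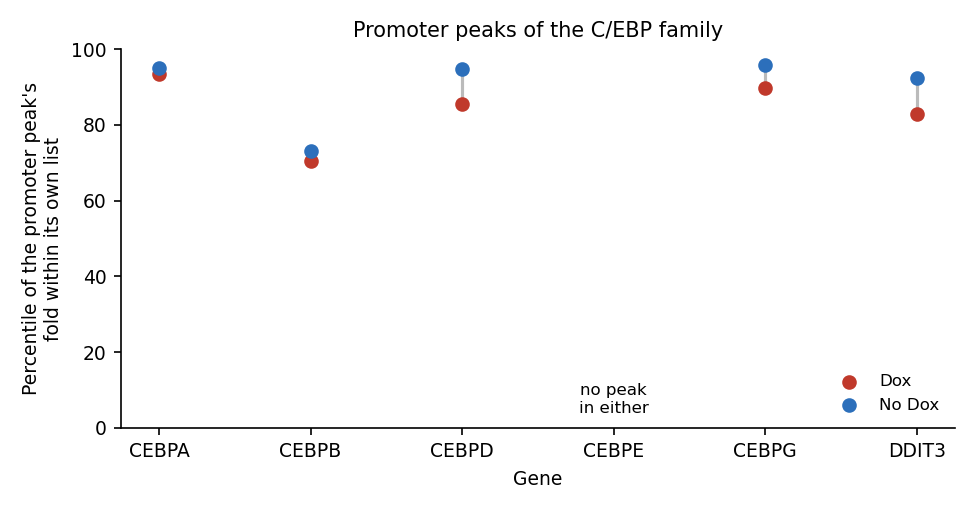
Percentile of the promoter peak within its own list (y axis, 0 to 100) for each gene of the family in Dox (red) and No Dox (blue), 1 point per pooled list, for DDIT3 over the cluster of TSSs, with no error bar because replicates were pooled. CEBPA stood at 93.5 and 95.1, CEBPB at 70.5 and 73.1, and CEBPE has no point as no peak was found there.

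The promoter peaks of CEBPA, CEBPB, CEBPD, CEBPG and DDIT3 all had a higher percentile in the No Dox list than in the Dox list. The same held for 71.5% of the shared regions at coding TSSs and for 69.7% of all shared regions, so the direction of the percentiles was that of most promoters. The relative ratio was above 1 at CEBPA, CEBPD, CEBPG and the cluster of TSSs of DDIT3. At CEBPB it was 0.853, so the direction there depended on the measure.

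Upstream sequence of DDIT3 and CEBPE is shown to set an open promoter of the family beside the closed one. Both are the 250 bases before a RefSeq TSS in GRCh38.p14, read 5′ to 3′ on the minus strand, at chr12:57520518-57520767 for DDIT3 and chr14:23119256-23119505 for CEBPE. Capitals mark the AP-1 motif in both and the TEAD motif (ACATTCC or GCATTCC) in CEBPE.
DDIT3 upstream: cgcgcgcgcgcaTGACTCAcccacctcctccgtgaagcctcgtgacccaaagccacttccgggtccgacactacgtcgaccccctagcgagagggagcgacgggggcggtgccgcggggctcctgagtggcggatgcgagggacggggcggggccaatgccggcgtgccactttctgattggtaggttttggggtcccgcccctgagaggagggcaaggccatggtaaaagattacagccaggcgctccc
CEBPE upstream: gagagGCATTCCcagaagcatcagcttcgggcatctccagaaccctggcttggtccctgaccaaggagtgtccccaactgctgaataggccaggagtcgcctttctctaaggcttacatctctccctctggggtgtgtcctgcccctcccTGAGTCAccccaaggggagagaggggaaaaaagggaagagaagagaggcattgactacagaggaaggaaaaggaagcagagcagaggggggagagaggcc

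The AP-1 match of DDIT3 began 238 bases before the TSS, and CEBPE had a TEAD match 245 bases and an AP-1 match 100 bases before its TSS although no peak was found there. Of 35116 RefSeq promoters of 300 bases, 6.64% held the TEAD motif and 4.95% the AP-1 motif. A second promoter of CEBPG (chr19:33373863-33374162) held the composite motif of C/EBP and ATF proteins, TGATGCAA, 42 bases before its TSS, as did 0.866% of all promoters. The promoters of CEBPA and CEBPB in the same table held none of the motifs sought, which were TEAD, AP-1, C/EBP, the composite and the CRE (TGACGTCA). Of all promoters, 10.5% held the C/EBP motif and 1.85% the CRE. The reversed TEAD sequence (CCTTACA or CCTTACG) was in 2.73% of all promoters and was not sought in those of the family.

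Over the whole windows, promoters included, the regions found in 1 condition were divided unevenly between the genes. Over all 6 windows, 14 regions were Dox-only, 12 No-Dox-only and 37 shared. Dox-only regions were 53.8% of these 26 condition-only regions (33.4 to 73.4%), against 33.0% over the genome and a median of 57.1% over the 18977 coding gene windows with such a region. The CEBPA and CEBPG windows, which overlap, held 11 of the 12 No-Dox-only regions, and the other 4 windows together held 6 Dox-only regions and 1 No-Dox-only region. Without the CEBPA and CEBPG windows the share was 85.7% (42.1 to 99.6%), and in these windows alone it was 42.1% (20.3 to 66.5%). The majority of No-Dox-only regions turned around when the longer No Dox list was shortened to the length of the Dox list. The CEBPA and CEBPG windows then held 8 Dox-only regions and 5 No-Dox-only regions, a share of 61.5% (31.6 to 86.1%), against 49.1% over the genome. Shortening removed the No Dox peaks with the weakest q-values, so the 4 strong No-Dox-only regions were bound to be among the 5. The intervals overlap, and the difference between the 2 sets of windows was not tested.

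**Figure D2:**
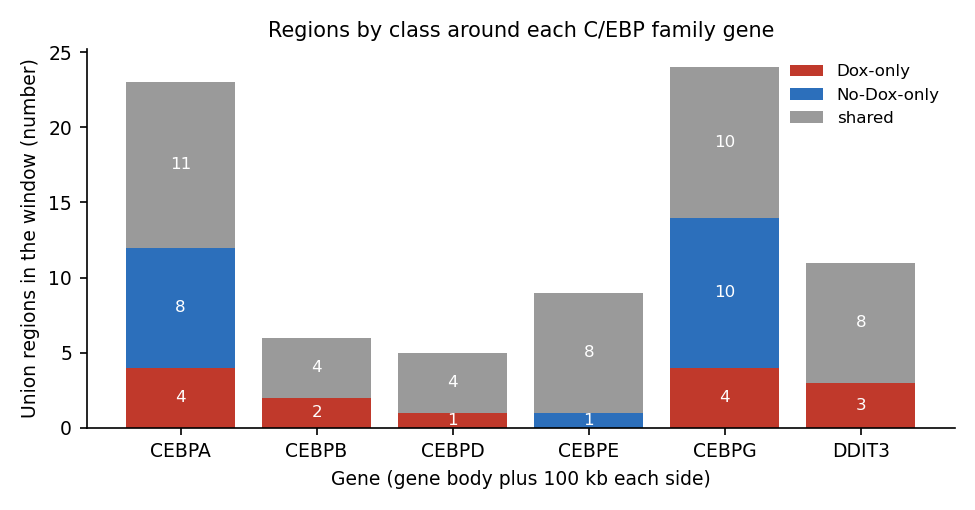
Number of regions of each class (y axis, count of regions) in the window of each gene, the gene body plus 100 kb on either side. CEBPA held 4 Dox-only regions against 8 No-Dox-only regions and CEBPG 4 against 10, with the regions in both windows drawn for each gene, and the remaining genes held at most 3 Dox-only regions and 1 No-Dox-only region.

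CEBPA and CEBPG lie next to each other on chromosome 19 and point away from each other, and 15 regions lay in the windows of both. Of these 15, 7 were No-Dox-only, 8 were shared and 0 were Dox-only (0% of the condition-only regions, 0 to 41.0%). This interval includes the 33.0% over the genome. All 4 strong No-Dox-only regions of the family were among the 7. The windows of CEBPA and CEBPG each held 4 strong No-Dox-only regions, at percentile 92.0 of all coding genes, and the CEBPA window held 0 strong Dox-only regions, a combination (at least 4 and 0) found for 2.96% of coding genes. The CEBPG window also held 1 strong Dox-only region and so had a different combination. The combination was taken from the counts of CEBPA itself, so its share of coding genes is not a test. Among all strong condition-only regions of the genome, 33.1% were Dox-only, and among those of the family, 2 of 6 were.

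The highest No-Dox-only region of the family lay between the genes, at chr19:33350256-33350985, in intergenic DNA 22.7 kb upstream of the CEBPG TSS and 47.7 kb upstream of the CEBPA TSS. Its fold was 11.7 in No Dox (percentile 93.9, −log10 q 40.2), below the No Dox folds of 12.9 and 13.8 at the promoters of both genes, and no Dox peak touched it. Of all 67861 No-Dox-only regions, 0.144% had a fold at least as high. The lowest fold in the Dox list was 2.71, so a signal below that in Dox would not have been listed. A second intergenic region, at chr19:33339278-33339878 and 33.8 kb from the CEBPG TSS, had a fold of 6.57 in No Dox (percentile 82.6) and no peak in Dox. It lay 0.808 kb from the TSS of RPS3AP50, a gene not classed as coding. These 2 regions were the only ones between the promoter peaks of CEBPA and CEBPG, and both were No-Dox-only. The counting interval of their Dox-only share was 0 to 84.2%, which includes the 33.0% over the genome.

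The remaining strong No-Dox-only regions lay close to a gene of the family. The region at chr19:33298538-33299154 was 0.78 kb beyond the end of CEBPA and 3.38 kb from its TSS, with a fold of 5.51 (percentile 76.6). The TSS of ENSG00000267580, a gene not classed as coding, was nearer, at 0.78 kb. The region at chr19:33376456-33377350 lay in an intron of CEBPG, 2.14 kb from the TSS, with a fold of 5.93 (percentile 79.3). Another 3 No-Dox-only regions within both windows were weak. They had folds of 3.60 at chr19:33274691-33275294 and 2.97 at chr19:33290330-33290556, downstream of CEBPA, and 2.75 at chr19:33402454-33403065, in an intron of PEPD, which encodes the dipeptidase prolidase.

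**Figure D3:**
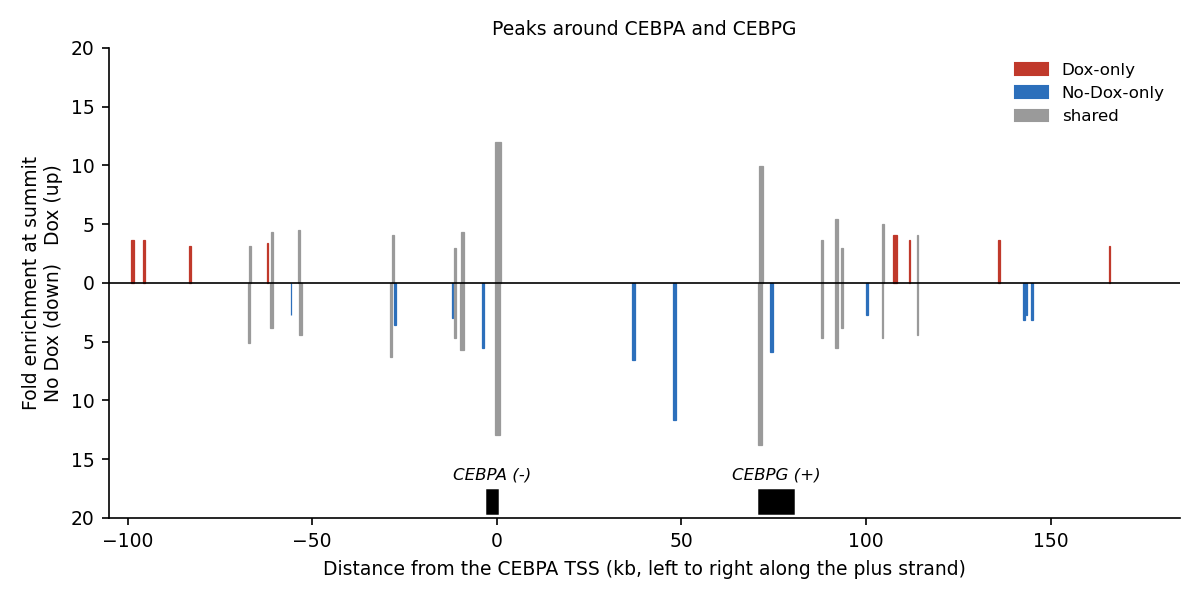
Regions around CEBPA and CEBPG by distance from the CEBPA TSS (x axis, kb, along the plus strand), with the fold of the strongest Dox peak upward and of the strongest No Dox peak downward (y axis, fold enrichment), gene bodies in black and strand in brackets. Between the shared promoter regions, 2 regions are seen, both No-Dox-only, with folds of 6.57 and 11.7. Their Dox-only share was 0% (0 to 84.2%), against 33.0% over the genome. Dox-only regions lie towards the ends of the map.

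Shared regions of the same stretch were mostly lower with Dox as well. Of the 8 shared regions within both windows, 7 had a relative ratio above 1, and over the 13 shared regions of either window 9 did, with a median of 1.22. The largest relative ratios were in 3 regions downstream of CEBPA. At chr19:33235201-33236033 the fold was 3.16 in Dox and 5.08 in No Dox (relative ratio 1.52), at chr19:33291063-33291491 it was 2.94 and 4.66, also past a relative ratio of 1.5, and at chr19:33273520-33274615 it was 4.07 and 6.35 (1.48). Of all shared regions in the genome, 10.1% were at least 1.5-fold weaker with Dox and 11.0% at least 1.5-fold stronger on this relative scale, and here 2 of 13 were weaker and 0 stronger.

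The 8 Dox-only regions of the CEBPA and CEBPG windows lay farther out, and the nearest coding TSS of each belonged to another gene. Those of the CEBPA window had folds from 3.16 to 3.62 and lay in or near LRP3, of the LDL receptor family, and SLC7A10, an amino acid transporter. Those of the CEBPG window lay in introns of PEPD, and the strongest, at chr19:33409934-33410820, had a fold of 4.07, equal to the median of the Dox list. Another 3 No-Dox-only regions of the CEBPG window, with folds from 2.75 to 3.18, were in introns of PEPD too.

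Regions were therefore also counted by their nearest coding TSS. Of the 63 regions, 17 had a gene of the family as the nearest, made up of 10 shared, 6 No-Dox-only and 1 Dox-only region. The Dox-only share was 14.3% (0.361 to 57.9%), an interval that includes the 33.0% over the genome. For the other 46 regions, which were nearest to another coding gene, 13 were Dox-only and 6 No-Dox-only (68.4%, 43.4 to 87.4%). All 6 No-Dox-only regions nearest to the family came from the CEBPA and CEBPG locus. CEBPA was nearest to 3 No-Dox-only and 4 shared regions and CEBPG to 3 No-Dox-only regions and 1 shared region. For CEBPE no region of the window had it as the nearest coding gene.

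The 1 Dox-only region nearest to a gene of the family was at CEBPB. It spanned 302 bp at chr20:50195418-50195719, in intergenic DNA 4.59 kb from the TSS, with a fold of 3.16 (percentile 14.0), and so was near the low end of the Dox list. It held 2 C/EBP matches, TTATGCAA 89 bp and TTTAGCAA 61 bp before the summit on the plus strand, shown in the fifth line of the first sequences above. The only strong Dox-only region of the CEBPB window, at chr20:50112716-50113265 with a fold of 5.65 (percentile 70.5), lay at the promoter of UBE2V1, a ubiquitin-conjugating enzyme variant.

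None of the 4 shared regions of the CEBPB window had a relative ratio above 1. The lowest was at the promoter shared by PEDS1, a plasmalogen desaturase, and its readthrough transcript PEDS1-UBE2V1, at chr20:50153421-50154300. The fold there was 7.01 in Dox and 4.24 in No Dox, a relative ratio of 0.573, which passed the 1.5-fold limit for a region stronger with Dox. A region on PELATON, a long non-coding RNA gene 76.6 kb away, had folds of 3.16 and 3.18.

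In the CEBPD window, by contrast, all 4 shared regions had a relative ratio above 1. The largest, at chr8:47731185-47731772, lay in an intron of SPIDR, which encodes a scaffold of homologous recombination. Its fold was 5.43 in Dox and 9.53 in No Dox, a relative ratio of 1.67 at percentile 94.0 of all shared regions. The others on SPIDR had folds of 8.36 and 9.32, and of 7.23 and 8.05, for Dox and No Dox. The 1 Dox-only region, at chr8:47638476-47639083, had a fold of 3.16 and also lay in an intron of SPIDR.

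In the CEBPE window, 8 of 9 regions were shared and 1 of these had a relative ratio above 1 (median 0.799). The 2 regions that were at least 1.5-fold stronger with Dox lay at chr14:23055944-23056613, in an intron of CDH24, a classical type cadherin, with folds of 6.10 in Dox and 3.81 in No Dox (relative ratio 0.593), and at chr14:23142088-23142407, in an intron of the amino acid transporter gene SLC7A8, with folds of 5.43 and 3.18 (0.556). The region in SLC7A8 held a TEAD match within 100 bp of its summit. The highest peaks of the window, with folds of 9.95 in Dox and 8.47 in No Dox, were at the promoter of ACIN1, which encodes a chromatin condensation factor. The only No-Dox-only region, at chr14:23175926-23176171 in SLC7A8, had a fold of 2.75.

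The DDIT3 window held 3 Dox-only regions, 0 No-Dox-only regions and 8 shared regions (median relative ratio 0.996). The Dox-only folds were 2.71, 3.39 and 3.62, below the median of the list, and the lowest, at chr12:57478855-57479075, equalled the lowest fold in the Dox list. Of the shared regions, 2 were the promoter regions of DDIT3 itself. The others lay at promoters of dense neighbours, among them GLI1, a Hedgehog pathway factor, MARS1, the methionyl-tRNA synthetase, and DCTN2, a dynactin subunit. At R3HDM2, chr12:57430530-57431370, the fold was 4.07 in Dox and 6.57 in No Dox (relative ratio 1.53).

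The windows of CEBPB, CEBPD and DDIT3 each held at least 1 Dox-only region and 0 No-Dox-only regions, as did 19.9% of all coding gene windows. With 2, 1 and 3 such regions, of which 1 was strong, this direction rests on few and mostly low peaks.

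**Figure D4:**
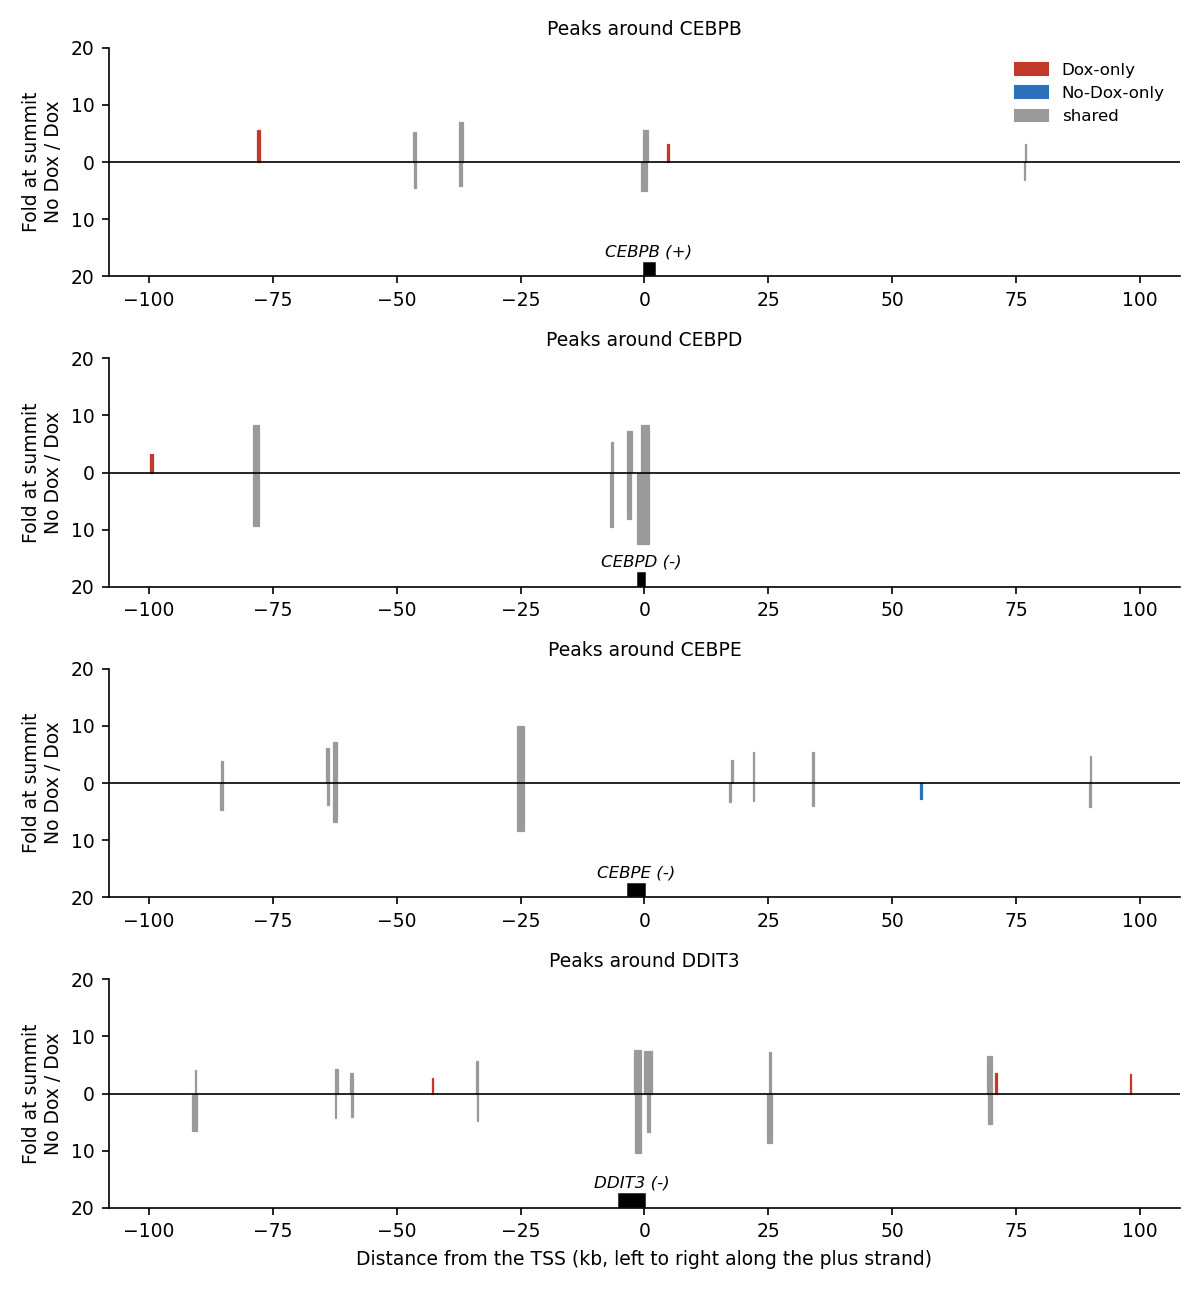
Regions in the windows of CEBPB, CEBPD, CEBPE and DDIT3 by distance from the TSS (x axis, kb, along the plus strand), with the fold of the strongest Dox peak upward and of the strongest No Dox peak downward (y axis, fold enrichment). Most regions are shared, the Dox-only folds lie between 2.71 and 5.65, and no peak lies near the TSS of CEBPE.

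**Figure D5:**
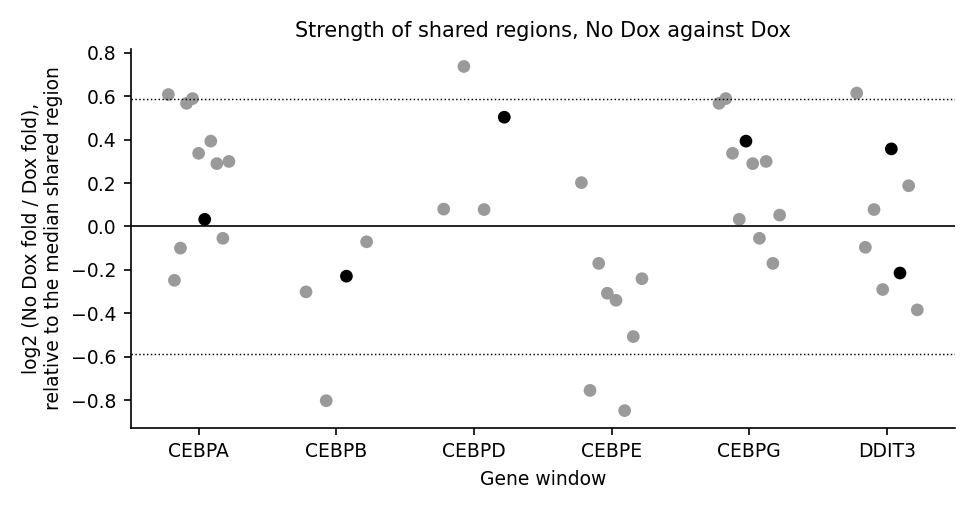
Relative ratio of No Dox to Dox folds (y axis, log2 scale, 0 for the median shared region) of each shared region in each window, 1 point per region, with promoter regions in black, dotted lines at 1.5-fold in either direction and regions in both the CEBPA and CEBPG windows drawn for each gene. All 4 regions of CEBPD lie above the solid line, 1 of 8 of CEBPE does, and the medians of CEBPA and CEBPG are both 1.23 as a ratio.

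The windows also differed in base composition, which moves with the share of Dox-only regions in this series. The GC content was 52.2% at CEBPA, 50.6% at CEBPG, 50.9% at CEBPB, 49.8% at DDIT3, 46.9% at CEBPE and 43.1% at CEBPD, with a median of 44.2% over coding genes. Among the 1997 genes in the same GC decile as CEBPA, CEBPB and CEBPG, 76.4% of condition-only regions were Dox-only, summed over gene windows. The shares were 68.1% in the decile of DDIT3, 62.1% in that of CEBPE and 42.6% in that of CEBPD. In these decile shares, a region in the windows of several genes was counted for each gene. At CEBPA and CEBPG the share was 33.3% (9.92 to 65.1%) and 28.6% (8.39 to 58.1%), below that of their decile. These 2 values are not separate, as 7 No-Dox-only regions lay in both windows. With each region counted once, the share in the 2 windows was 42.1% (20.3 to 66.5%). The only condition-only regions of CEBPB, in contrast, were Dox-only. The part of base composition in these shares was not tested.

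The motif shares of the family's regions were read from both strands in the 100 bp to either side of the highest summit of each region. The TEAD motif, bound by the main DNA-binding partners of TAZ, was in 4 of the 63 regions (6.35%, 1.76 to 15.5%), against 8.81% of all regions. The AP-1 motif was in 8 (12.7%, 5.65 to 23.5%), against 13.1%, and the C/EBP motif in 3 (4.76%, 0.993 to 13.3%), against 11.7%. The reversed TEAD sequence, a control, was in 0 regions, against 2.19%. None of these shares differed from that of all regions beyond its counting interval.

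By class, 1 of 14 Dox-only regions held a TEAD match (7.14%), against 13.6% of all Dox-only regions, and 1 of 12 No-Dox-only regions did (8.33%), against 5.72%. Of the 4 strong No-Dox-only regions, 2 held an AP-1 match, 20 bp before and 51 bp after the summit, against 22.4% of the 20008 such regions of the genome. The highest one, between CEBPA and CEBPG, held none of the motifs, nor did the one just beyond the end of CEBPA. C/EBP matches were in the CEBPB region described above, at the ACIN1 promoter and in an intron of PEPD, and the composite C/EBP and ATF motif was at MARS1.

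Genes that work with the family were examined by the same counts. For comparison, 65.3% of all coding genes had a promoter peak in both conditions. Of 14 regulators and partners of C/EBP proteins, 12 had a promoter peak in both conditions, SPI1 in neither and HLF, another bZIP factor, with Dox alone. Their windows together held 69 Dox-only and 22 No-Dox-only regions, led by IL6R, a receptor subunit for interleukin 6 (17 and 1), TRIB1, a pseudokinase that promotes degradation of C/EBPα (9 and 3), DBP, a bZIP factor of the circadian clock (9 and 0), and HLF (5 and 7). All 14 genes of the integrated stress response around DDIT3 had an open promoter in both conditions, and their windows held 63 Dox-only regions and 33 No-Dox-only regions. ATF3, a stress-induced bZIP factor, held 31 and 11, VLDLR, a lipoprotein receptor, 2 and 9, CHAC1, which degrades glutathione, 5 and 1, and BBC3, a pro-apoptotic BCL2 relative, 5 and 1.

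Among 15 genes known as C/EBP targets, HP, the acute phase protein haptoglobin, had a promoter peak in No Dox alone. Of the 15, 11 had an open promoter in both conditions, against 65.3% of all coding genes, and 3 in neither. Their windows held 61 Dox-only and 43 No-Dox-only regions. PTGS2, the inducible prostaglandin synthase, held 6 and 19 of these, HAS2, a hyaluronan synthase, 14 and 3, ORM1, an acute phase glycoprotein, 6 and 5, and SOCS3, an inhibitor of cytokine signalling, 8 and 0. The median Dox-only share per window was 84.5% for the regulators, 74.4% for the stress response genes and 75.0% for the targets, against 57.1% over coding genes. Windows of neighbours overlap, and a region in more than 1 window was counted for each gene.

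The AP-1 family, another bZIP family, was set beside the C/EBP genes because its proteins act at many TAZ-bound sites. The windows of its 10 genes held 188 regions, of which 63 were Dox-only and 25 No-Dox-only, a share of 71.6% (61.0 to 80.7%). Of the 10 promoters, 9 were open in both conditions, against 65.3% of all coding genes. The strong regions comprised 16 Dox-only regions and 8 No-Dox-only regions, against 2 and 4 at the C/EBP genes. The intervals of the Dox-only shares of the AP-1 and the C/EBP genes overlap, and the difference was not tested.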

How the data were processed

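ATAC-seq was performed on 4 samples, 2 biological replicates each without and with Dox. Per the methods of the study, paired reads were mapped by the authors to hg38 (BWA), both replicates of a condition were combined, and MACS2 called peaks with an FDR cutoff of 0.05 on the combined reads. Tool versions are not given in the sources used here. The deposited fold enrichment of each peak is a ratio of pooled signal to background at the summit. The deposited −log10 q-value of each peak is the value of the peak caller, and the p-value column was not used.

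Among the lower folds, where this was checked, all were whole multiples of a step (0.226 in Dox, 0.212 in No Dox). Folds were compared across lists only as the relative ratio or as percentiles within each list. Percentiles give tied folds their mean rank. None of the 202093 peaks ran past the end of its hg38 chromosome. Regions of chromosomes 1 to 22 and X were assigned to genes with GENCODE release 44, and motifs were fixed words on both strands of hg38. Promoter sequences came from RefSeq (GRCh38.p14), whose table matched 5 of the 6 genes. The genes, lists, motifs and windows were chosen with earlier results of these data known, and the 1.5-fold limit of the relative ratio was set after its values were seen. In each window the text names the promoter peaks, the strong condition-only regions and the highest region of each class, and in each list the genes whose promoter state differed and up to 4 with the most condition-only regions. Other regions named in the text were chosen after their values were seen.

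The steps were tested on simulated data, in which 100% of 3000 regions of Dox and No Dox lists were classed correctly, 100% of 500 gene windows were counted correctly and 100% of 1915 planted TEAD sites were found. Python 3.11.15, numpy 2.4.6, pandas 2.3.3, scipy 1.17.1, pysam 0.24.0, samtools 1.23.1 and matplotlib 3.10.9 were used. Alternatives were stricter q-values, lists of equal length, strong regions only, another overlap or merging distance, every line counted, other windows, the nearest TSS, other promoter rules and other motif windows.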

Additional observations from a re-analysis of the deposited data

How the results depend on the processing

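No paired analysis was possible because the replicates were pooled before peak calling, and for the same reason no replicate could be left out. The number of genes of the family with a promoter peak in both conditions was 5 under all 8 alternatives. Stricter q-values and lists of equal length only remove peaks. The weakest promoter peak, at CEBPB in No Dox, had a −log10 q of 9.22 (percentile 73.1) and was bound to stay. A limit of 3 kb could not add CEBPE, whose nearest peak was 17.1 kb from a TSS. These settings therefore do not test the count. The Dox-only share of 53.8% rose to 76.2% with lists of equal length (16 Dox-only and 5 No-Dox-only regions, against 49.1% over the genome) and to 85.7% without the CEBPA and CEBPG windows, an alternative chosen after the values were seen, as was the share in these windows alone (42.1%). It dropped to 33.3% for strong regions only, to 20% in windows of 20 kb (1 and 4 regions) and to 14.3% for regions nearest to a gene of the family. Under the other alternatives it lay between 36.4% (windows of 50 kb) and 56%, within the counting interval of the reported share. The 4 strong No-Dox-only regions of the CEBPA and CEBPG windows stayed No-Dox-only with strong regions only, equally long lists, and q-values under 0.01 and 1e-05. These settings only remove peaks, and the 4 regions had no Dox peak and high No Dox peaks. Their class could therefore not change, and these settings do not test it. With lists of equal length the counts in the CEBPA and CEBPG windows went from 8 Dox-only against 11 No-Dox-only regions to 8 against 5. The majority there thus turned from No-Dox-only to Dox-only (61.5%). Of 54 counts of regions per window and class under alternatives, 24 stayed within 1.5 times the reported count. These include counts that were 0 and stayed 0, which a smaller window or strong regions only cannot change. The TEAD share of 6.35% was 3.17% within 50 bp of the summit and 15.9% in whole peaks (10 of 63), against 18.9% of all regions in whole peaks. With no read counts and with replicates pooled, a missing peak cannot be told apart from a signal under the calling limit, and small counts per gene limit every share given here.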
